A study of Mus musculus with 6 samples.

Results

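The genes examined here encode the machinery that makes and uses microRNAs. They are Drosha, Dgcr8, Xpo5, Dicer1, Tarbp2, the Argonautes Ago1, Ago2, Ago3 and Ago4, and Tnrc6a. They were picked by symbol, and all 10 were found once each among the 44678 Ensembl gene identifiers of the count tables. They were measured in 3 WT and 3 KO libraries. The KO mice lack a genomic segment with the precursors of both miR-144 and miR-451, in all tissues and not in CD8a+ cells alone, on a C57BL/6J background. The WT mice were C57BL/6J mice from a university animal center, and the sources used here do not say whether they were littermates of the KO mice. The labels call the cells CD8a+ leukocytes of the spleen with no treatment, and the methods give an age of 8 to 12 weeks for every animal of the study. The methods describe magnetic beads for the CD8 chain Ly-2 to select CD8+ T cells and for CD11c to select dendritic cells (DCs), and the study introduces its sequencing with a question on DCs. No source used here says which selection gave these libraries, and CD8a is carried by T cells and by a subset of DCs. Neither the labels nor the methods say whether each library is a separate mouse, so that the p-values measure the spread between these libraries, which may be technical.

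A canonical microRNA is cut from its primary transcript in the nucleus by the Microprocessor, in which DROSHA is the RNase III enzyme and DGCR8 the RNA-binding partner. The hairpin is carried to the cytoplasm by XPO5 and cut by DICER1, which works with TARBP2. One strand is then loaded into an Argonaute protein, which recruits TNRC6A and, through it, the enzymes that shorten the poly(A) tail and remove the cap. miR-451 is the known exception. Its hairpin is too short for Dicer and is loaded directly into AGO2, which cleaves it with its own slicer activity before the 3′ end is trimmed. miR-144, made from the same primary transcript, takes the Dicer route and has been described as repressing Dicer in erythroid cells.

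The mature strands of the deleted locus are shown because their shapes separate the routes and because their seeds decide which of the 10 genes could be matched by them. The RefSeq sequences (GRCm38.p6) are given 5′ to 3′ with the seed, bases 2 to 8, in capitals.
miR-144-5p: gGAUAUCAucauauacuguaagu
miR-144-3p: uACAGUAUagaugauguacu
miR-451a: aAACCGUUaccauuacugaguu
The hairpin of miR-144 lies at chr11:78073005-78073070 and that of miR-451a at chr11:78073170-78073241, both on the plus strand. The 3 seeds differ. In the fold of lowest computed energy, miR-451a starts at base 17 of a 72-nt hairpin, pairs over 17 bases and runs on through all 4 unpaired bases of the terminal loop. The stem between the first base of miR-451a and the loop holds 17 base pairs. In the hairpin of miR-144 the corresponding number is 22 for the 5′ strand, and neither strand enters the loop. Of 1635 mature mouse sequences folded in this way, 11 (0.673%) covered a terminal loop, and 141 (8.62%) had a stem of 17 pairs or fewer.

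The libraries totalled between 8143971 and 8876570 estimated counts. Levels are given as CPM, the count per 1000000 counts of the library after scaling with TMM factors between 0.989 and 1.01, and the spread of a log2 fold change as its standard error (SE). Mir144, Mir451a and Mir451b had a count of 0 in all WT and KO libraries, which allows up to 3 counts, or 0.338 to 0.368 CPM. The deletion could therefore not be read from these tables. No library repeated another of its genotype, since for each such pair the chi-square over its degrees of freedom was at least 6.29. Defining markers of CD8 T cells were present in all libraries, with a summed level of 7 genes between 2810 and 3820 CPM in WT and between 1947 and 3641 CPM in KO, and the KO mean was higher for 0 of the 7. The sum of 7 B cell markers lay between 1459 and 2566 CPM in WT and between 1270 and 2936 CPM in KO, with a higher KO mean for 7 of 7. Transcripts of B cells were thus present beside those of T cells. Another sum took 7 DC markers, not all of them restricted to CD8a+ dendritic cells (cDC1). It was 216 to 230 CPM in WT and 283 to 294 CPM in KO, without overlap. Of all genes tested, 5.82% had all KO above all WT. The KO mean was higher for 7 of the 7 markers. Zbtb46, Flt3 and Cadm1 lay apart (adjusted p = 0.786, 0.519 and 0.274 by edgeR), and Xcr1, Clec9a, Itgax and Batf3 overlapped. Itgax made up 104 to 148 CPM of the sum, against 15.4 to 33.6 CPM for Xcr1 and 16.7 to 38.9 CPM for Clec9a. For other cell types the KO mean was higher for 7 of 7 erythroid, 5 of 5 neutrophil and 6 of 7 monocyte/macrophage markers. It was higher for 3 of 3 CD4 T cell, 3 of 4 plasma cell, 3 of 4 NK cell and 1 of 4 plasmacytoid DC markers. The sums of all these types overlapped between the genotypes. None of the markers named here was at 0 in all libraries. In such mixtures, fewer cells of a type and less RNA per cell cannot be told apart.

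The comparison of KO with WT asks whether the transcripts of the processing machinery differ when miR-144 and miR-451 are missing. None of the 10 genes passed an adjusted p-value of 0.05 in edgeR's quasi-likelihood test, where 0.0307% of the 13024 genes tested did (4 genes, 0.0154% higher and 0.0154% lower in KO). DESeq2 and limma voom also called 0 of the 10, and 0 of the 10 had an unadjusted p-value under 0.05 in edgeR, against 6.25% of all genes. All 10 passed the filter on low counts. The median log2 fold change of the 10 was 0.053, with 7 of them above 0, against a median of 0.0030 and 50.6% above 0 over all genes tested. For 9 of the 10 the 95% interval of the log2 fold change lay within 0.5 on either side of 0, and the exception was Ago4. Over all genes tested, 6305 of 13024 had an interval that narrow.

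**Figure D1:**
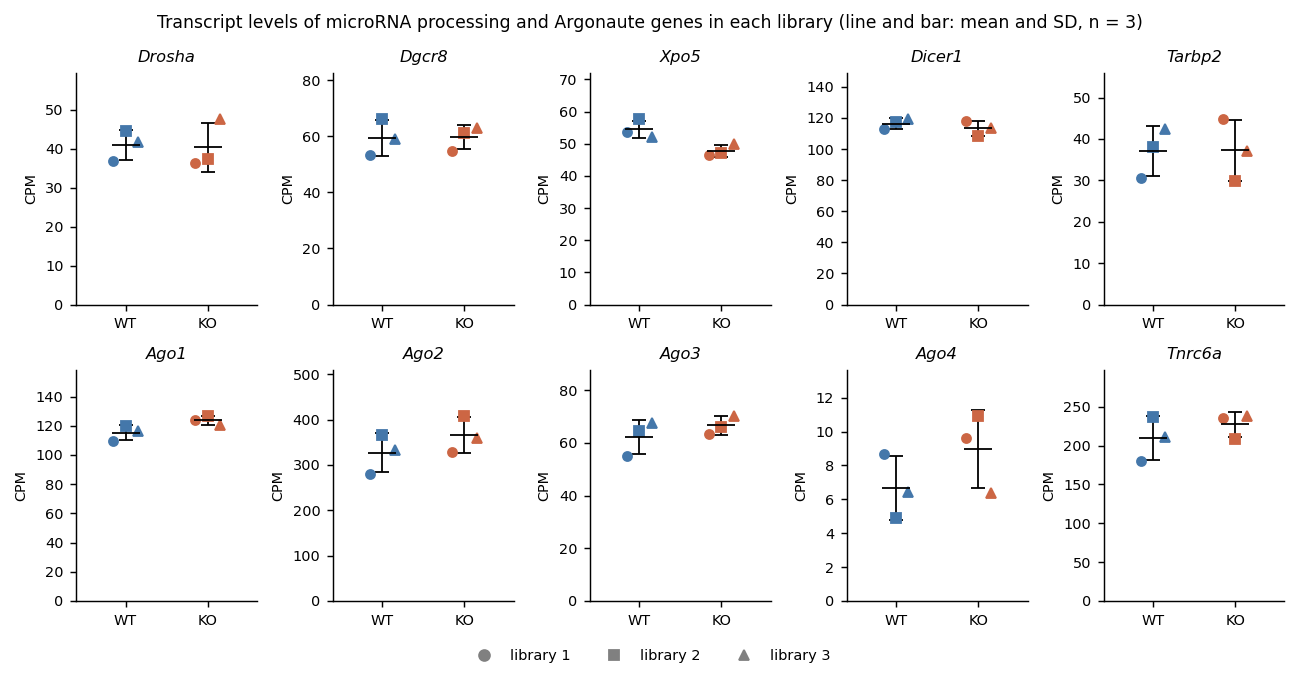
CPM of each gene (vertical axes, from 0) in the 3 WT and 3 KO libraries, with the mean and SD of each genotype. WT and KO points overlap for 8 of the 10 genes, and for Ago1 and Xpo5 they lie apart by little.

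Drosha (chr15:12824815-12935291, plus strand) reached 36.9, 44.5 and 41.7 CPM in WT libraries 1 to 3 and 36.3, 37.3 and 47.5 CPM in KO libraries 1 to 3. The ranges overlapped, and both the lowest and the highest library were KO. Its log2 fold change was -0.023 (SE 0.13, adjusted p = 0.978). Dgcr8 (chr16:18253948-18289246, minus strand) reached 53.3, 65.9 and 59.1 CPM in WT and 54.9, 61.0 and 63.0 CPM in KO, so that the KO values lay inside the WT range. Its log2 fold change was 0.0043 (SE 0.11, adjusted p = 0.994). Exons of Dgcr8 overlap those of 4 other genes, most of all Trmt2a on the opposite strand over 825 bp, and reads there are uncertain, as no source used here says whether strand was used.

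Xpo5, the exportin that carries precursor hairpins out of the nucleus, lies at chr17:46202782-46243598 on the plus strand. It reached 53.6, 57.5 and 52.1 CPM in WT and 46.4, 47.0 and 49.8 CPM in KO. All 3 KO libraries were below all 3 WT libraries. The log2 fold change was -0.19 (SE 0.086) with a 95% interval from -0.39 to 0.011, which is a change between -23.5% and 0.742% (unadjusted p = 0.0607, adjusted p = 0.798 by edgeR). Among the 10 genes this was the smallest unadjusted p-value, and it did not pass 0.05. Without KO replicate 3 the log2 fold change of Xpo5 was -0.24 (unadjusted p = 0.0428, adjusted p = 0.339 by edgeR). In that fit 1869 of all genes were under an unadjusted 0.05, against 814 in the main comparison. No other alternative took Xpo5 under 0.05. It was -0.15 without WT replicate 2 and -0.14 with a marker covariate (unadjusted p = 0.181 and 0.206 by edgeR). The unadjusted p was 0.117 with replicate number as a block in edgeR and 0.155 by DESeq2. Xpo5 shares no exon with another gene and none of its 31-base words with another transcript.

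Dicer1 (chr12:104687742-104751952, minus strand) was the steadiest of the 10. It reached 113, 118 and 119 CPM in WT and 118, 109 and 113 CPM in KO, and the highest library was 1.09 times the lowest. The log2 fold change was -0.037 (SE 0.075) with a 95% interval from -0.21 to 0.14, or from -13.6% to 9.89% (adjusted p = 0.935 by edgeR). Its SD between libraries of a genotype was 0.051 on the log2 scale, and 6.53% of the 1639 genes of like level had a smaller one. Ago1 and Xpo5 were close to it, with SDs of 0.053 and 0.064, and 7.80% and 7.10% of their genes of like level had a smaller one. Tarbp2, the double-stranded RNA-binding partner of DICER1, lies at chr15:102518192-102523676 on the plus strand. It reached 30.5, 38.2 and 42.5 CPM in WT and 44.7, 29.9 and 37.1 CPM in KO. The lowest and the highest library were again both KO, and the log2 fold change was 0.0090 (SE 0.18, adjusted p = 0.993). Of the 31-base words of Tarbp2, 16.6% occur in other genes, chiefly Gm18584, so that part of its count could have been shared out.

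Ago2, the Argonaute with slicer activity that matures miR-451, lies at chr15:73095844-73184935 on the minus strand. It had the highest CPM of the 10 in every library, with 280.2, 366 and 334 CPM in WT and 329, 408 and 359 CPM in KO. The ranges overlapped, with KO2 above all WT libraries and WT1 below all KO libraries. The log2 fold change was 0.16 (SE 0.13) with a 95% interval from -0.13 to 0.45, or from -8.69% to 37.1% (adjusted p = 0.854 by edgeR). Without WT replicate 1 the log2 fold change of Ago2 was 0.061, and without WT replicate 2 it was 0.25. An exonic overlap of 219 bp with Chrac1 on the opposite strand leaves reads there uncertain. Of the 31-base words of Ago2, 5.88% occur in other genes, chiefly Gm6088, so that part of its count could have been shared out.

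Ago1, Ago3 and Ago4 lie next to each other on the minus strand of chromosome 4, at chr4:126435012-126468583, chr4:126331704-126429556 and chr4:126489541-126533472. Ago1 reached 109, 119.6 and 117 CPM in WT and 124, 127 and 121 CPM in KO, and all KO libraries were above all WT libraries. Its log2 fold change was 0.10 (SE 0.076, unadjusted p = 0.208, adjusted p = 0.842 by edgeR). With Xpo5, this makes 2 of 10 genes whose ranges did not overlap, where 11.5% of all genes tested had no overlap. Ago3 reached 55.0, 64.6 and 67.5 CPM in WT and 63.4, 66.2 and 70.3 CPM in KO, with overlap, and its log2 fold change was 0.097 (SE 0.10, adjusted p = 0.879).

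Ago4 was the least expressed of the 10, with 76, 43 and 52 counts in WT and 83, 91 and 56 counts in KO. This was 8.65, 4.90 and 6.44 CPM in WT and 9.59, 10.9 and 6.40 CPM in KO. KO1 and KO2 were above all WT libraries and KO3 lay between WT2 and WT3. The log2 fold change was 0.43 (SE 0.29) with a 95% interval from -0.24 to 1.10, which includes both 0 and 1 (adjusted p = 0.830 by edgeR). Tnrc6a (chr7:123123885-123195296, plus strand), the GW182 scaffold that Argonautes bind, reached 181, 237 and 211 CPM in WT and 235, 208 and 238 CPM in KO. The ranges overlapped, and the log2 fold change was 0.12 (SE 0.12, adjusted p = 0.872).

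**Figure D2:**
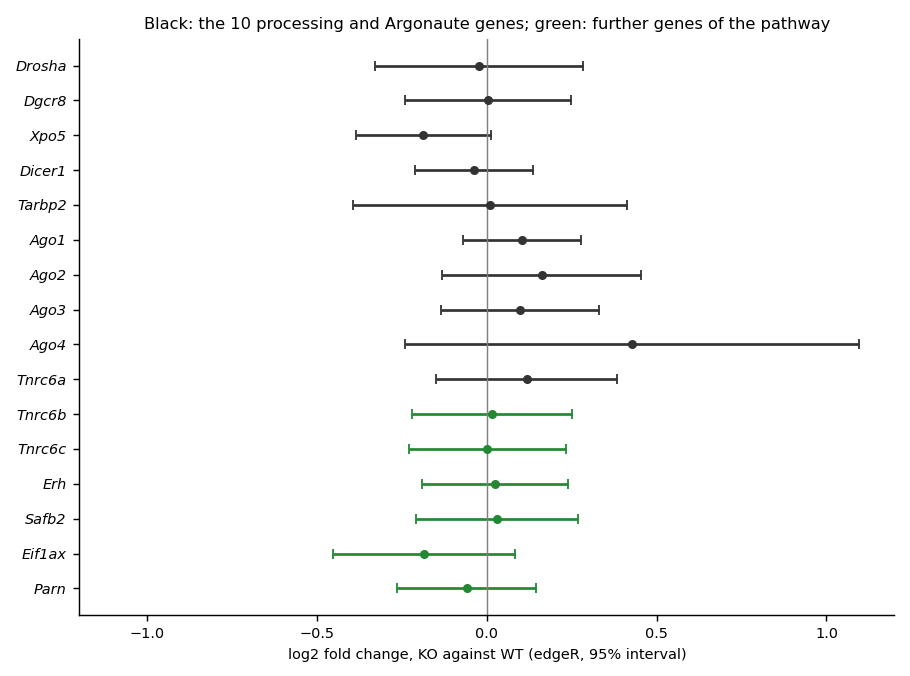
Log2 fold change of KO against WT (horizontal axis) with its 95% interval from edgeR for the 10 genes in black and, in green, the GW182 paralogs Tnrc6b and Tnrc6c and the genes tied to miR-451, Erh, Safb2, Eif1ax and Parn. The plotted intervals include 0, and that of Ago4 runs from -0.24 to 1.10, while Prkra and Cnot8, whose intervals lie above 0, are not plotted.

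The seeds of the deleted microRNAs were looked up in the longest annotated 3′-UTR of each gene, on the transcript strand only. A match to bases 2 to 8 of miR-144-3p, ATACTGT, occurred once each in Dicer1, Ago2 and Ago3, and in 13.9% of the 11586 tested genes with a 3′-UTR. The 3′-UTRs of the 10 genes are long, with a median of 3539.5 nt against 1366 nt over the tested genes. No match to miR-144-5p (TGATATC, in 6.11% of tested genes) or to miR-451a (AACGGTT, in 2.22%) was found in the 10. In the 73 further genes of the pathway described below, 14 (19.2%) held a match to miR-144-3p, 10 (13.7%) to miR-144-5p and 3 (4.11%) to miR-451a. The sites of Dicer1, Ago2 and Ago3 are shown with the match in capitals, since they are the matches found among the 10 genes (GRCm38, minus strand, 5′ to 3′).
Dicer1 at chr12:104689378-104689398: actagtttgaatcATACTGTg
Ago2 at chr15:73101589-73101609: atgtgtgagtgccATACTGTg
Ago3 at chr4:126343388-126343408: aattcgattctcaATACTGTt
None of the 3 matches is followed by A. A match of letters is not evidence of binding, and the log2 fold changes given above for Dicer1, Ago2 and Ago3, -0.037, 0.16 and 0.097, all had intervals that include 0.

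Levels between genes were compared per kb of annotated exon. Ago2 was highest, with a mean of 24.7 ± 3.05 CPM per kb (SD over all 6 libraries), followed by Tnrc6a with 17.2 ± 1.80 and Ago1 with 14.7 ± 0.748 CPM per kb. The range of Ago2 lay above that of Tnrc6a, the ranges of Tnrc6a and Ago1 overlapped although Tnrc6a was higher in 6 of 6 libraries, and Ago1 lay above all that follow. Tarbp2, Dgcr8, Xpo5, Drosha and Dicer1 came next, with means between 6.86 and 8.17 CPM per kb, and each overlapped its neighbor in this order. Drosha and Dicer1, the RNase III enzymes, had the same mean of 6.86 CPM per kb. Ago3 with 3.89 ± 0.316 and Ago4 with 1.13 ± 0.328 CPM per kb were each apart from the gene above. The exon lengths join all annotated isoforms, so that these levels depend on which isoforms the cells use.

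Ago2 made up more than any other Argonaute of the summed Ago1 to Ago4 level per kb. Its share was 52.6%, 57.4% and 55.1% in WT and 53.4%, 57.9% and 56.1% in KO. The share of Ago1 was 33.7% ± 1.54 in WT (SD, n = 3) and 32.8% ± 1.85 in KO (SD, n = 3). Ago3 contributed between 7.95% and 9.44%, and Ago4 between 1.55% and 3.28%. The KO and WT ranges overlapped for the shares of Ago1, Ago2, Ago3 and Ago4 alike. The level of Ago2 per kb was 2.97, 3.72 and 3.35 times that of Dicer1 in WT and 3.33, 4.48 and 3.78 times in KO, again with overlap.

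**Figure D3:**
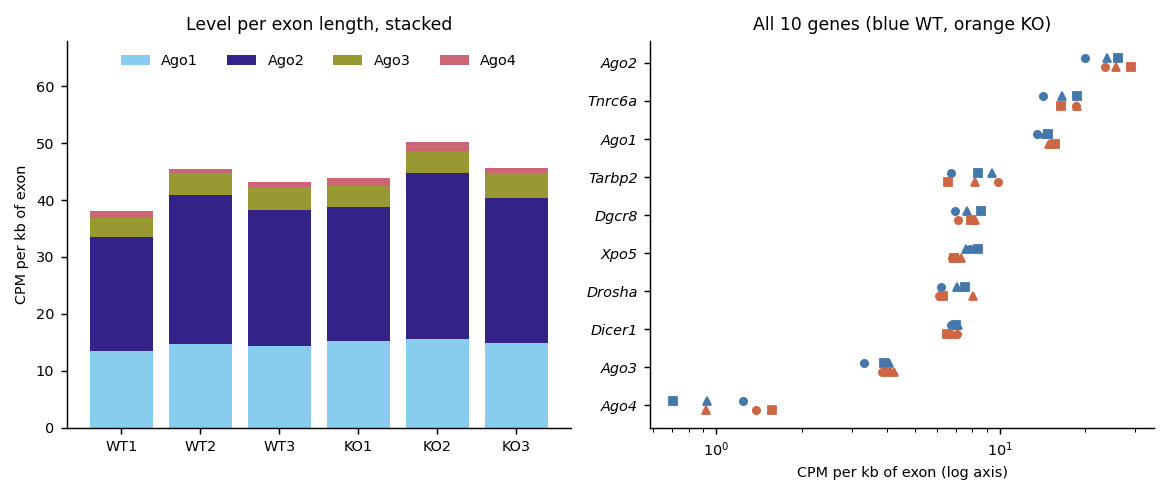
Left, CPM per kb of exon of Ago1 to Ago4 stacked for each library, from 0. Right, CPM per kb of all 10 genes on a log axis, ordered by mean, with 1 point per library. Ago2 is the largest part of the stack in all 6 libraries, and Ago3 and Ago4 stand apart below the other 8 genes.

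The marker sums of several cell types differed between libraries of the same genotype, and Drosha and Ago4 are set beside them because of their order over the libraries, which was noticed after their values were seen. The 3 libraries with the lowest CD8 T cell marker sums were WT1 (2810 CPM), KO1 (2565 CPM) and KO2 (1947 CPM), against 3641 to 3820 CPM in the others. The same 3 had the highest B cell marker sums, with 2566, 2687 and 2936 CPM against 1270 to 1520 CPM. The sums for CD4 T cells, plasma cells, monocytes/macrophages and neutrophils were also highest in them, whereas those for cDC1, plasmacytoid DCs, NK cells and erythroid cells were not ordered in this way. The erythroid sum, for example, was 721, 391 and 2116 CPM in WT1, KO1 and KO2 and 527, 244 and 732 CPM in WT2, WT3 and KO3. Drosha was lowest in these 3 libraries, with 36.3 to 37.3 CPM against 41.7 to 47.5 CPM in WT2, WT3 and KO3. Ago4 was highest in them, with 8.65 to 10.9 CPM against 4.90 to 6.44 CPM. None of the other genes of the 10 was split in this way. Dgcr8, for example, had 61.0 CPM in KO2 against 59.1 CPM in WT3, and Tnrc6a had 235 CPM in KO1 against 211 CPM in WT3. The share of all genes tested with such an order was not computed. With the mean level of B cell, monocyte/macrophage and cDC1 markers as a covariate, the log2 fold change of Drosha turned to 0.18 (SE 0.11, adjusted p = 0.856 by edgeR) and that of Ago4 to -0.034 (SE 0.25, adjusted p = 0.990 by edgeR). In the same fit Tnrc6a had a log2 fold change of 0.26 and Ago3 of 0.21 (unadjusted p = 0.0525 and 0.0689, adjusted p = 0.729 and 0.770 by edgeR). Drosha and Ago4 were chosen for an order that follows the B cell markers in the covariate, so their shift is no separate result. The covariate also holds the cDC1 markers, whose sum lay apart between the genotypes, so it can take up part of the genotype difference. Whether cell makeup sets the level of Drosha or Ago4 was not tested.

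**Figure D4:**
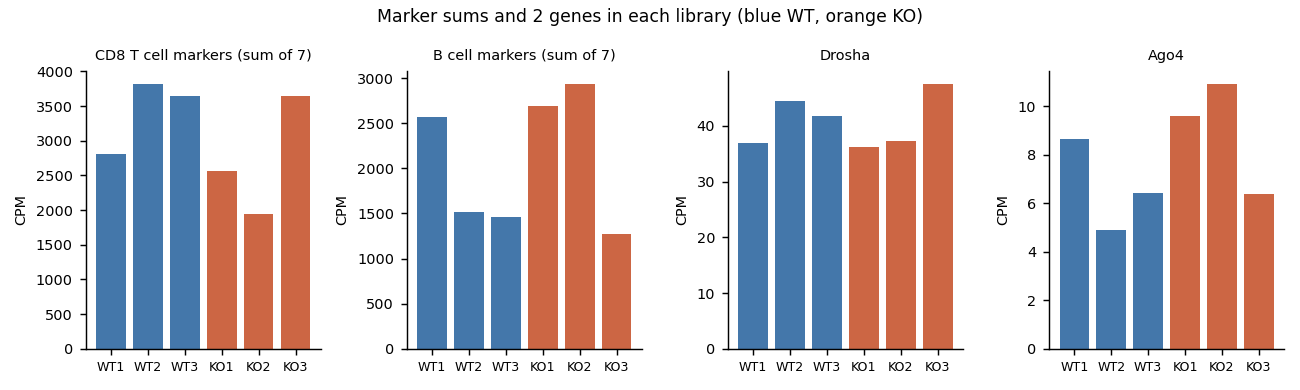
Summed CPM of 7 CD8 T cell markers and of 7 B cell markers, and CPM of Drosha and Ago4, as bars from 0 for each library. WT1, KO1 and KO2 are low in T cell markers and Drosha and high in B cell markers and Ago4.

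The rest of the pathway was covered by 73 further genes in 5 role groups, of which 72 could be tested and Lin28b had a count of 0 in all libraries. None passed an adjusted p-value of 0.05 in edgeR, DESeq2 or limma voom. At an unadjusted p-value under 0.05, 2 of 72 were higher in KO (4.14% of all genes tested were) and 0 were lower (2.11% of all genes). These were Prkra and Cnot8. Neither had an unadjusted p-value under 0.05 in edgeR with the replicate block or without WT replicate 1, WT replicate 3 or KO replicate 3. Prkra alone of the pair did with upper-quartile normalization, without the filter on low counts, with DESeq2 and without WT replicate 2 or KO replicate 1, and Cnot8 alone without KO replicate 2. Both did with the marker covariate, with a mean of at least 10 counts as the filter and with limma voom. The number of pathway genes under 0.05 in either direction, 2 in the main comparison, ran from 0 to 5 over the alternatives and was not always made up of Prkra and Cnot8. Pabpc1, lower in KO, was the 1 such gene without KO replicate 3. In that fit 1869 of all genes tested were under 0.05, against 814 in the main comparison. The 5 pathway genes came with the marker covariate, where 897 of all genes were. The count of 0 came with the replicate block and without WT replicate 3, where 685 and 523 of all genes were. The median log2 fold change of the 72 was -0.0015. Ranges did not overlap for 5 genes higher and 2 lower in KO, where 5.82% and 5.65% of all genes tested did not overlap.

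Among the 13 nuclear processing cofactors the log2 fold changes lay between -0.16 and 0.030. They include Erh and Safb2, whose proteins help the Microprocessor cut poor hairpins that lie beside a good one, as miR-451 lies beside miR-144. Erh had 63.1 ± 2.18 CPM in WT against 64.2 ± 5.72 CPM in KO (SD, n = 3), and Safb2 had 224 ± 11.8 and 229 ± 26.1 CPM (SD, n = 3). Their log2 fold changes were 0.025 and 0.030 with SE 0.093 and 0.10. Mettl3, which methylates adenosines in primary microRNA transcripts, had the smallest unadjusted p-value of the group (log2 fold change -0.16, unadjusted p = 0.147, adjusted p = 0.818 by edgeR), and all KO libraries were below all WT libraries.

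Of the 13 tested genes of export, dicing and precursor modification, 8 had a log2 fold change above 0, and the values lay between -0.19 and 0.76. The highest was that of the RNA editing enzyme Adarb1, which had 8 to 23 counts per library and overlapping ranges (log2 fold change 0.76, SE 0.41, unadjusted p = 0.102, adjusted p = 0.816 by edgeR) and was named after its value was seen. Prkra, which encodes PACT, the other double-stranded RNA-binding partner of DICER1, reached 5.35, 6.49 and 3.34 CPM in WT and 6.82, 8.28 and 9.49 CPM in KO. The log2 fold change was 0.69 (SE 0.29, unadjusted p = 0.0420, adjusted p = 0.786 by edgeR), and the WT and KO ranges did not overlap. Without WT replicate 3 the log2 fold change of Prkra was 0.45 (unadjusted p = 0.130 by edgeR), and without WT replicate 2 it was 0.91 (unadjusted p = 0.0252 by edgeR). The genes tied to the later steps of miR-451 maturation did not pass either. Parn, the exonuclease that trims the AGO2-cleaved product, had 42.9 ± 1.21 CPM in WT against 41.1 ± 2.14 CPM in KO (SD, n = 3). Eif1ax, whose protein binds AGO2 and promotes miR-451 maturation, had 53.0 ± 1.15 and 46.6 ± 6.72 CPM (SD, n = 3), with KO1 lowest at 39.7 CPM. Its log2 fold change was -0.19 with a 95% interval from -0.45 to 0.082 (adjusted p = 0.818 by edgeR), and that of Parn was -0.060 with an interval from -0.26 to 0.15 (adjusted p = 0.908 by edgeR). With 1 library left out, Eif1ax ran from -0.29 without KO replicate 2 (unadjusted p = 0.0340 by edgeR) to -0.10 without KO replicate 1, and Parn from -0.12 without KO replicate 1 to -0.032 without KO replicate 2.

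The 15 genes of Argonaute loading and partners had log2 fold changes between -0.13 and 0.14. The GW182 paralogs of Tnrc6a are in this group. Tnrc6b had 280.1 ± 29.1 CPM in WT against 283 ± 15.5 CPM in KO (SD, n = 3), and Tnrc6c, which lies on chromosome 11, had 190.5 ± 20.2 and 190.6 ± 11.1 CPM (SD, n = 3). Fmr1, whose protein FMRP binds RNA alongside Argonautes, had the smallest p-value among the genes higher in KO (log2 fold change 0.14, unadjusted p = 0.112, ranges without overlap), and Fxr2, a relative of Fmr1, among the lower ones (log2 fold change -0.13, unadjusted p = 0.265, both by edgeR).

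The 25 silencing effectors had a median log2 fold change of 0.0073. Cnot8, a deadenylase subunit of the CCR4-NOT complex, reached 68.4, 66.7 and 70.8 CPM in WT and 82.5, 71.9 and 84.6 CPM in KO, with a log2 fold change of 0.21 (SE 0.089, unadjusted p = 0.0430, adjusted p = 0.786 by edgeR), and the ranges did not overlap. With 1 library left out, Cnot8 ran from 0.15 to 0.28, and its unadjusted p-value stayed under 0.05 only without KO replicate 2. Pabpc1, the cytoplasmic poly(A)-binding protein, had a log2 fold change of -0.15 (adjusted p = 0.841 by edgeR). It was -0.25 without KO replicate 3 (unadjusted p = 0.0491 by edgeR), -0.089 without KO replicate 2 and -0.033 with the marker covariate. In the microRNA turnover group of 6 genes, Pnpt1, an RNA-degrading exonuclease, had a log2 fold change of 0.25 (unadjusted p = 0.0807, adjusted p = 0.816 by edgeR, ranges without overlap) and the exonuclease Xrn2 one of -0.077 (adjusted p = 0.900 by edgeR). Zswim8, which directs the decay of Argonaute bound to a microRNA and its trigger RNA, and Dcp1a, a decapping factor, were named after their values were seen, since with Mettl3, Prkra, Fmr1, Cnot8 and Pnpt1 they are the 7 genes without overlap, Zswim8 higher and Dcp1a lower in KO, with log2 fold changes of 0.16 and -0.044. Cnot8, Pnpt1, Fxr2 and Tnrc6c lie on chromosome 11 as the deleted locus does, and none of the 10 processing and Argonaute genes does.

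**Figure D5:**
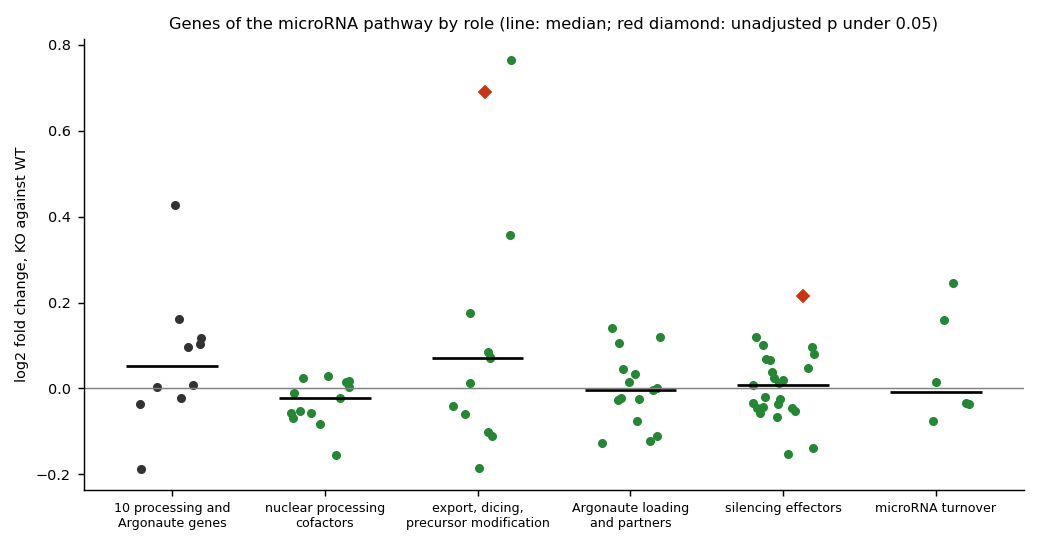
Log2 fold change of KO against WT (vertical axis) for the 10 genes (black) and the 72 tested further genes of the pathway in 5 role groups (green), with each group's median as a line and genes of an unadjusted p-value under 0.05 as red diamonds. The diamonds are Prkra at 0.69 and Cnot8 at 0.21, and all 5 medians of the role groups lie between -0.022 and 0.071.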

How the data were processed

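RNA of 3 WT and 3 KO samples was made into SMARTER libraries. A table of expected counts was deposited by the authors for each library. These deposited values are estimated read counts per Ensembl gene that need not be whole and carry no normalization. The unit was read from the values. The submitters' processing notes name GRCm38 and mm10 as genome builds, and the aligner, the counter and the use of strand are not given in the sources used here. Of the 44678 identifiers, 44121 (98.75%) are in GENCODE M21 (GRCm38), which gave symbols, positions, exon lengths and 3′-UTRs.

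Counts were rounded and compared in R 4.3.3 with edgeR 4.0.16 (TMM, filterByExpr at min.count 10 and min.total.count 15, quasi-likelihood test, Benjamini-Hochberg adjustment over 13024 genes, threshold 0.05). Standard errors are the log2 fold change over the root of F, and 95% intervals use the test's degrees of freedom. CPM are counts per 1000000 of the library total times its TMM factor. The marker covariate is the scaled mean of log2(CPM + 0.5) over 21 markers. The procedure was tested on simulated data. Hairpins were folded with RNAfold 2.7.2. Alternatives used DESeq2 1.42.0 and limma 3.58.1. The floor of 3 counts covers counting error only. The 10 genes and the lists were chosen with earlier results of these data known. The text names the 10 genes, 4 genes tied to miR-451, the paralogs of Tnrc6a, any called gene of the pathway list, the gene of smallest p-value per role group and direction, and the 3 genes most like Ago2 and Dicer1. Protein sequences of the Argonautes were not analysed here.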

Additional observations from a re-analysis of the deposited data

How the results depend on the processing

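None of the 10 genes and none of the 72 tested further pathway genes was called under any of the 13 alternatives. Over them the smallest adjusted p-value was 0.339 for the 10 genes. For the 14 further named genes it was 0.353. The number of genes called over all genes, 4 in the main comparison, was 55 with DESeq2, 12 without a filter on low counts, 9 with the replicate block and 10 with the marker covariate, and from 2 to 94 with 1 library left out. The 94 came without KO replicate 3, and the 2 without WT replicate 1 and also without WT replicate 3. The number of called genes stayed at 0 in all of these, also with the replicate block, both for the 10 genes and for the pathway list. The block rests on sample numbers alone. Deviations of same-numbered libraries had correlations across genes of -0.0066, -0.22 and 0.13, and not every library correlated best with its own number. No pairing by number was thus seen. With 3 libraries per genotype these correlations cannot show that a shared day or preparation was absent.

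Directions turned in 12 values outside the fits with 1 library left out. With the marker covariate the log2 fold change was 0.18 for Drosha, -0.034 for Ago4, -0.11 for Safb2 and 0.020 for Xrn2. Without a filter on low counts it was -0.016 for Dgcr8, -0.011 for Tarbp2, -0.0039 for Tnrc6b and -0.018 for Tnrc6c. With upper-quartile normalization it was -0.0050 for Dgcr8 and -0.0071 for Tnrc6c, and with DESeq2 -0.0018 and -0.0046. The cause was not tested. With 1 library left out, the log2 fold change ran from -0.18 to 0.038 for Drosha, from -0.070 to 0.084 for Dgcr8, from -0.16 to 0.14 for Tarbp2, from -0.036 to 0.097 for Erh, from -0.050 to 0.093 for Safb2, from -0.068 to 0.056 for Tnrc6b and from -0.084 to 0.063 for Tnrc6c. It kept its sign for the other 7 of the 10 genes, from -0.24 to -0.15 for Xpo5, from -0.084 to -0.0083 for Dicer1, from 0.066 to 0.13 for Ago1, from 0.061 to 0.25 for Ago2, from 0.012 to 0.14 for Ago3, from 0.24 to 0.66 for Ago4 and from 0.020 to 0.21 for Tnrc6a. The values nearest to 0 came without WT replicate 1 for Ago2, Ago3 and Tnrc6a and without WT replicate 2 for Ago4, whose highest came without WT replicate 1. It ran from 0.11 to 0.30 for Pnpt1, lowest without KO replicate 3, from -0.21 to -0.036 for Fxr2, nearest to 0 without WT replicate 3, and from -0.19 to -0.0017 for Xrn2, nearest to 0 without KO replicate 2. For Prkra it ran from 0.45 to 0.91, for Cnot8 from 0.15 to 0.28, for Eif1ax from -0.29 to -0.10, for Parn from -0.12 to -0.032, for Pabpc1 from -0.25 to -0.089, for Mettl3 from -0.20 to -0.11 and for Fmr1 from 0.091 to 0.17. Ago4 had 43 to 91 and Prkra 27 to 83 counts per library, and how far their depth sets their spread was not tested.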

Other observations

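The 1606 tested genes with a match to the miR-144-3p seed in the longest 3′-UTR, among them Dicer1, Ago2 and Ago3, showed a median of 0.027 for the log2 fold change between KO and WT, with 56.7% above 0, and the 9980 without one had a median of -0.0021, with 49.4% above 0. For miR-144-5p the medians were 0.038 over 708 genes with a match and -0.00062 over 10878 without, and for miR-451a 0.030 over 257 and 0.0019 over 11329. These are descriptions with no test, and genes with a match differ from the others in 3′-UTR length, which was not taken into account.

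Over the 6 libraries, the genes whose centred log2 CPM lay closest to that of Ago2 were Cchcr1, Zfpm1 and Abcc5, with root mean square differences of 0.038, 0.039 and 0.045, where Ago2 itself ranged over 0.54 on the log2 scale. Those closest to Dicer1 were Sf3a1, Ezr and Dok1, with differences of 0.0075, 0.015 and 0.020, where Dicer1 ranged over 0.13.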
